A study of Caenorhabditis elegans with 3 samples.

Results

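Glycosaminoglycans are long sugar chains that are built onto core proteins in the Golgi apparatus, and in C. elegans they are chondroitin and heparan sulfate. Both chains start from the same short linker of xylose, galactose, galactose and glucuronic acid, after which separate enzymes extend one chain or the other. Most of the enzymes up to that branch, and those of chondroitin, were found as sqv genes, whose mutants have a squashed vulva, and loss of their function in the mother stops embryos at their first divisions, where chondroitin proteoglycans of the eggshell are needed. The genes described here are the 8 sqv genes and mig-22, which encodes the partner of the chondroitin synthase, 9 in all. They were taken by name from the platform annotation, or by current gene name, and 7 of the 9 had a named row and a value on all 3 arrays, among 19731 features measured on all 3, 14795 of them named genes. No row was named for sqv-2 or sqv-6, and neither is described further. The set was selected on function with the log2 ratios of these same arrays already known, so the ratios of the 7 genes are given as a description, with no test and as support for nothing.

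RNA was compared between 2 genotypes of Caenorhabditis elegans on 3 arrays of 2 colours. In fem-1(lf) the gene fem-1 has lost its function, and XX animals then make oocytes but no sperm. In fem-3(gf) the gene fem-3 is overactive, and XX animals then make sperm but no oocytes. On each array RNA of one genotype was compared with RNA of the other, and the labels number the arrays as preps 1 to 3. Whether that number stands for a prep of each genotype is not stated, and the array is the replicate. Alleles, ages, temperature and the parts of the animal used are not given in the labels. Nor do they say whether the preps were separate cultures, so each p-value covers the spread between these arrays only, which may be technical. Animals of both genotypes hold somatic cells as well as germ cells, and in such bulk RNA fewer cells of a type and less RNA per cell cannot be told apart.

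A positive log2 ratio was read as a higher level in fem-1(lf). The labels name no dye, so this direction is likely rather than stated: each description names fem-1(lf) first. The 4 sperm markers, the major sperm protein gene msp-142, the sperm phosphatase gene gsp-3, the ferlin gene fer-1 and the sperm surface protein gene spe-9, had means from -5.76 to -2.58, and the 4 oocyte markers, oma-1, the yolk receptor gene rme-2, puf-5 and spn-4, had means from 2.10 to 2.98. All 8 went with that reading on all 3 arrays, but they were chosen with their values in these data known, so they are no independent test of it. The mutated genes fem-1 and fem-3 were at 0.04 ± 0.21 and 1.76 ± 0.38 (SD, n = 3), and these levels check no label, since it is not stated that either mutation removes what the probe detects. The whole-array SD was 1.34, 1.13 and 1.20 on preps 1, 2 and 3, and the SD of a typical (median) feature over the arrays was 0.22. By limma at an adjusted p under 0.05, 21% of features had more RNA in fem-1(lf), 23.7% had less, and 47% of these calls lay on the fem-1(lf) side. That split depends on where 0 is set: it was 56.5% with each array centred on its median, 56.4% with the arrays also scaled to one spread, and 76.7% with each array centred on 51 muscle, intestine, cuticle and neuron markers, which moved the median of all features from -0.10 to 0.29.

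All 7 measured genes had log2 ratios above 0 on each of the 3 arrays. Their means ran from 0.47 for sqv-4 to 1.74 for sqv-8, with a median of 1.22 (2.33-fold), against a median of -0.10 for all features. The mean was 1 or more for 5 of the 7 (8.61% of all features), and 3 of the 7 were above 1 on every array (5.2% of all features). For comparison, 29.5% of all features were above 0 on all 3 arrays.

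**Figure D1:**
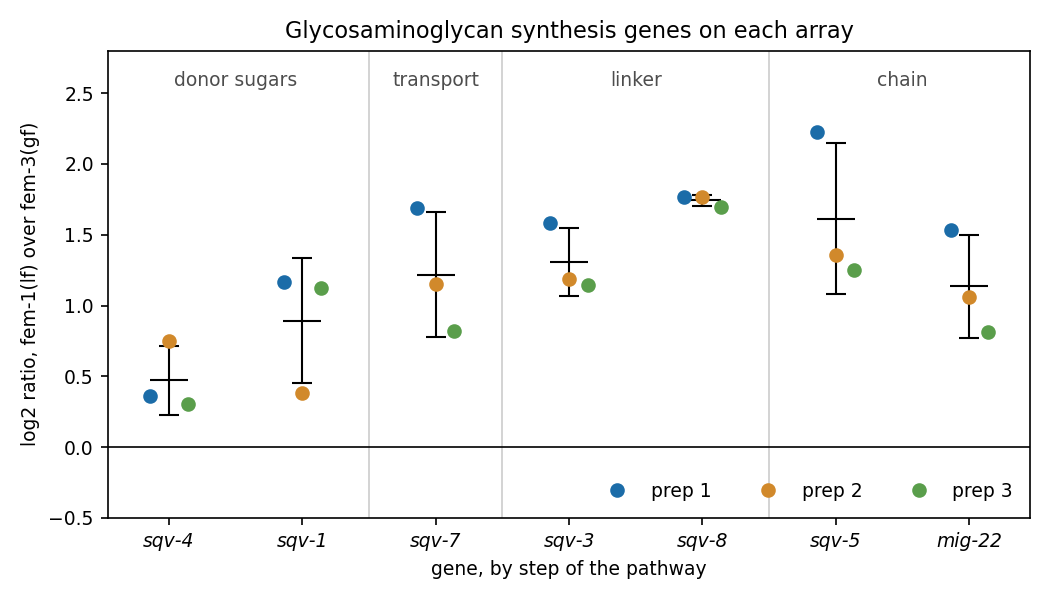
Log2 ratio of fem-1(lf) over fem-3(gf) (vertical axis, no unit) for the 7 measured genes, ordered by step of the pathway. Points are the arrays of preps 1, 2 and 3, and the black mark and bar are the mean and SD over the 3 arrays. All points lie above 0, from 0.31 for sqv-4 on prep 3 to 2.23 for sqv-5 on prep 1.

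The genes that make the donor sugars had the lowest means. The gene sqv-4 (F29F11.1, chromosome V) encodes UDP-glucose dehydrogenase, which makes UDP-glucuronic acid, and its log2 ratios were 0.36, 0.75 and 0.31 on preps 1, 2 and 3. Its mean was 0.47 ± 0.24 (SD, n = 3, 1.39-fold), and it was the one gene of the 7 with its highest value on prep 2. The gene sqv-1 (D2096.4, chromosome IV) encodes the decarboxylase that turns UDP-glucuronic acid into UDP-xylose, the first sugar of the linker. Its ratios were 1.17, 0.38 and 1.13, a mean of 0.89 ± 0.44 (1.86-fold). Prep 2 stood low for sqv-1 and high for sqv-4, so the order of this pair was turned on that array. Of all features, 79.2% had a lower mean than sqv-4 and 89.7% a lower mean than sqv-1.

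The transporter gene sqv-7 (C52E12.3, chromosome II) encodes a Golgi carrier of UDP-glucuronic acid, UDP-galactose and UDP-N-acetylgalactosamine. It had log2 ratios of 1.69, 1.15 and 0.82 on preps 1, 2 and 3, with a mean of 1.22 ± 0.44 (SD, n = 3, 2.33-fold). Prep 1 was the highest and prep 3 the lowest, and all 3 were above 0. Of the features on all arrays, 94.6% had a lower mean.

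Among the linker enzymes, sqv-3 (R10E11.4, chromosome III) encodes the galactosyltransferase that adds the first galactose to xylose. The gene has 2 rows on the array, and their average gave 1.58, 1.19 and 1.15, a mean of 1.31 ± 0.24 (SD, n = 3, 2.48-fold). Taken apart, one row was at 1.46 ± 0.30 and the other at 1.16 ± 0.19, both positive on all 3 arrays. The gene sqv-8 (ZK1307.5, chromosome II) encodes the glucuronyltransferase that completes the linker, and it had the highest mean and the smallest spread of the set. Its ratios were 1.77, 1.77 and 1.70, a mean of 1.74 ± 0.040 (3.35-fold), and 98.2% of features had a lower mean. The other linker enzymes are the xylosyltransferase SQV-6 and the galactosyltransferase SQV-2, whose genes had no named row.

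Chondroitin itself is polymerised by SQV-5 and MIG-22. The synthase gene sqv-5 (T24D1.1, chromosome I) had log2 ratios of 2.23, 1.36 and 1.25 on preps 1, 2 and 3, with a mean of 1.61 ± 0.53 (SD, n = 3, 3.06-fold). Prep 1 held the highest single value of the set, and without it the mean of sqv-5 was 1.31. The gene mig-22 (PAR2.4, chromosome III), named for a defect in the migration of the distal tip cells of the gonad, encodes the chondroitin polymerising factor that the synthase needs. Its ratios were 1.53, 1.06 and 0.81, a mean of 1.13 ± 0.37 (2.20-fold). Both genes were highest on prep 1 and lowest on prep 3, and on each array sqv-5 was above mig-22.

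The order of the means was sqv-8, sqv-5, sqv-3, sqv-7, mig-22, sqv-1 and sqv-4, and most neighbours in it could not be separated. The difference of sqv-8 over sqv-5 was 0.13 ± 0.51 (SD of the difference over 3 arrays), with sqv-5 higher on prep 1. Those of sqv-3 over sqv-7 and of mig-22 over sqv-1 were 0.088 ± 0.22 and 0.24 ± 0.51, and that of sqv-1 over sqv-4 was 0.42 ± 0.68, each with the order turned on 1 of the 3 arrays. The differences of sqv-5 over sqv-3, 0.31 ± 0.29, and of sqv-7 over mig-22, 0.084 ± 0.075, were slightly larger than their SD and had the same sign on every array. No test was made of this order, and 3 arrays cannot give a two-sided sign-flip p under 0.25.

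Prep 1 gave the highest value for 6 of the 7 genes and prep 3 the lowest for 6. The median of the 7 was 1.58, 1.15 and 1.13 on preps 1, 2 and 3, and 6, 5 and 4 of them were above 1. On the same arrays 11.5%, 7.69% and 8.23% of all features were above 1, so the array with the widest spread over all features was also the one with the highest ratios of these genes. The part of that spread in the values was not tested. Scaling gave the arrays 1 common median absolute deviation, set at their average, so it could hardly move a mean over the 3 arrays. The median of the 7 was 1.30 after scaling, against 1.31 with centring on the array median alone.

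**Figure D2:**
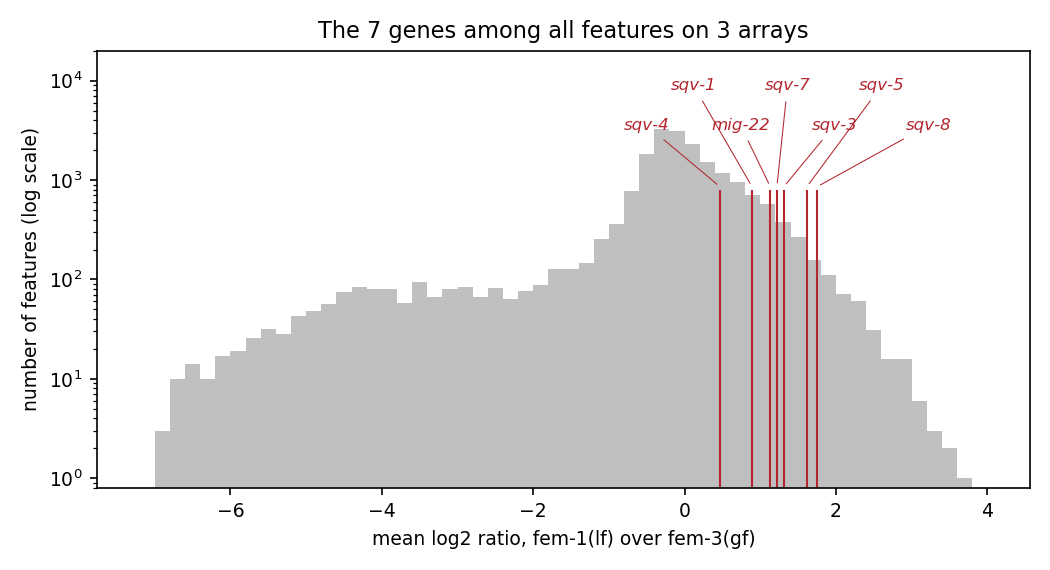
Number of features (vertical axis, log scale) by mean log2 ratio of fem-1(lf) over fem-3(gf) over the 3 arrays (horizontal axis, no unit, bins of 0.2), with red lines at the means of the 7 genes. The genes lie between 0.47 and 1.74 on the right shoulder of the distribution, whose median is -0.10.

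Heparan sulfate is made on the same linker, and its enzymes were examined from lists. Both polymerase genes were higher in fem-1(lf), beside 21% of all features. The gene rib-1 had 0.95, 0.87 and 1.01 on preps 1, 2 and 3, with a mean of 0.94 ± 0.075 (SD, n = 3, limma adjusted p = 0.00171), and rib-2 had 0.53, 0.66 and 0.67, with a mean of 0.62 ± 0.078 (adjusted p = 0.00801). The call of rib-2 was lost without prep 3 (0.60). Of the 4 measured genes of heparan sulfate modification, 3 were higher in fem-1(lf) (21% of all features were) and 1 did not pass. The N-deacetylase and N-sulfotransferase gene hst-1 was at 1.91 ± 0.28 (3.76-fold, adjusted p = 0.000308), the C5-epimerase gene hse-5 at 1.54 ± 0.34 (2.90-fold, adjusted p = 0.000989) and the 2-O-sulfotransferase gene hst-2, on the X chromosome, at 1.12 ± 0.10 (2.17-fold, adjusted p = 0.000977). The 3-O-sulfotransferase gene hst-3.1 was at 0.28 ± 0.35 (adjusted p = 0.21), with a value below 0 on prep 3, and it passed with centring on the somatic markers (0.67, adjusted p = 0.016). The median of these 4 was 1.33, beside 1.22 for the 7 measured sqv and mig-22 genes, which include donor sugar and transporter genes. The genes hst-6 and hst-3.2 had no named row.

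**Figure D3:**
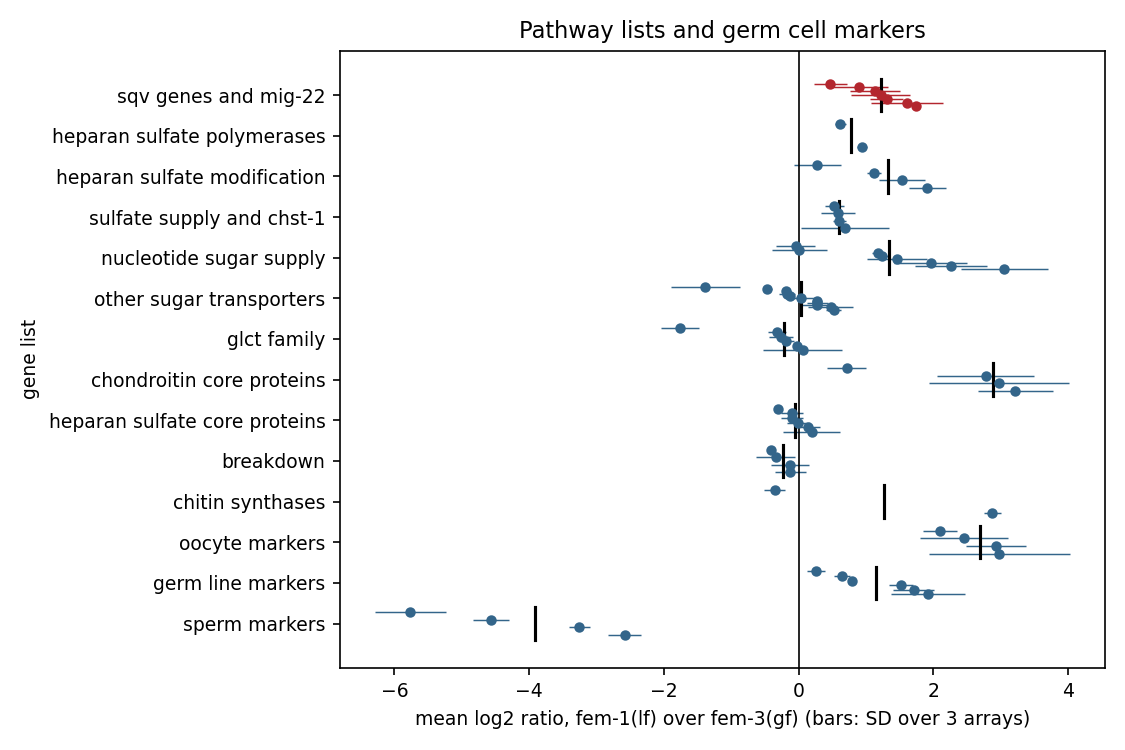
Mean log2 ratio of fem-1(lf) over fem-3(gf) (horizontal axis, no unit) for each measured gene of the pathway lists and germ cell marker lists (vertical axis), with bars for the SD over 3 arrays and a black line at the median of each list. The sqv genes and mig-22 (red, median 1.22) lie with the heparan sulfate modification genes (median 1.33), between the heparan sulfate core proteins (median -0.05) and the chondroitin core proteins (median 2.88).

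The genes that supply sulfate lay lower. Their count stands beside 21% of all features called higher in fem-1(lf). Of 4 measured, 3 were higher in fem-1(lf): pps-1, which encodes the synthase of the sulfate donor PAPS, at 0.61 ± 0.10 (SD, n = 3, limma adjusted p = 0.00943), and the PAPS transporter genes pst-1 at 0.58 ± 0.25 (adjusted p = 0.020) and pst-2 at 0.53 ± 0.14 (adjusted p = 0.017). Both transporter calls were lost without prep 2 (0.45 and 0.47) and without prep 3 (0.62 and 0.61). The chondroitin sulfotransferase gene chst-1 had -0.07, 1.12 and 1.00 on preps 1, 2 and 3, a mean of 0.69 ± 0.66 that did not pass (adjusted p = 0.072). It did pass without prep 1 (1.06, adjusted p = 0.00324), with centring on the array median (0.78, adjusted p = 0.039) or on the somatic markers (1.07, adjusted p = 0.00153), and after scaling (0.80, adjusted p = 0.033).

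In the supply of the other sugars, 6 of 8 measured genes were higher in fem-1(lf) (21% of all features were), with a median of 1.35. Amino sugars are made from fructose 6-phosphate by an aminotransferase, an acetyltransferase, a mutase and a pyrophosphorylase, and each of these steps held a gene that was higher in fem-1(lf). The aminotransferase genes gfat-2 and gfat-1 were at 3.06 ± 0.65 and 1.19 ± 0.10 (SD, n = 3, limma adjusted p = 0.000393 and 0.000795). The acetyltransferase gene gna-2 was at 2.27 ± 0.54 (adjusted p = 0.000699), whereas gna-1 was at -0.04 ± 0.28 (adjusted p = 0.83). The mutase gene pgm-3 was at 1.96 ± 0.54 (adjusted p = 0.00123) and C36A4.4, of the pyrophosphorylase step, at 1.47 ± 0.45 (adjusted p = 0.00218). The last gene of the 6 was rml-1 (K08E3.5), a nucleotidyltransferase-like gene, at 1.23 ± 0.087 (adjusted p = 0.000662), and D1005.2 was at 0.01 ± 0.40 (adjusted p = 0.96). Amino sugars feed chitin as well as glycosaminoglycans. The eggshell chitin synthase gene chs-1 was at 2.88 ± 0.13 (adjusted p = 3.09e-05), while chs-2, known for the chitin of the pharynx, was at -0.35 ± 0.15 (adjusted p = 0.064). Values of gfat-2 and chs-1 were known when the lists were chosen.

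The transporter genes related in function to sqv-7 lay on both sides of 0. Of 11 other measured nucleotide sugar transporter genes, 1 was higher in fem-1(lf) (21% of all features were) and 2 were lower (23.7% were). The other 8 did not pass, and the median was 0.03. The gene that rose was nstp-10 at 0.52 ± 0.12 (SD, n = 3, limma adjusted p = 0.017), not past the test without prep 2 (0.58) or prep 3 (0.51), and those that fell were nstp-6 at -1.38 ± 0.51 (adjusted p = 0.00388) and nstp-4 at -0.46 ± 0.071 (adjusted p = 0.022), the latter call lost without prep 2 (-0.44), without prep 3 (-0.50) and under centring on the array median (-0.37) or the somatic markers (-0.07). On preps 1, 2 and 3 the highest of the 11 was 0.87, 0.44 and 0.54, below sqv-7 at 1.69, 1.15 and 0.82. Because sqv-7 is in a set chosen with its ratios known, this comparison is a description only. The number of the 11 higher in fem-1(lf) was 2 with median centring, 4 after scaling and 5 with somatic centring, where 23.8%, 24.6% and 37.2% of features were. It was 0 without prep 2 or without prep 3, where 15.9% and 14.9% of features were.

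The 6 glct genes encode proteins like the glucuronyltransferase SQV-8. By limma 0 of the 6 were higher in fem-1(lf) (21% of all features were) and 1 was lower (23.7% were). At an unadjusted p under 0.05, 0 of the 6 were higher and 2 were lower. The gene called was glct-6, higher in fem-3(gf) at -1.76 ± 0.28 (SD, n = 3, limma adjusted p = 0.000443), with -1.91, -1.43 and -1.94 on preps 1, 2 and 3. The other 5, glct-1, glct-2, glct-3, glct-4 and glct-5, had means of -0.26, -0.32, 0.06, -0.02 and -0.18 and did not pass (adjusted p between 0.077 and 0.91). On preps 1, 2 and 3 the highest of the 6 was -0.01, 0.06 and 0.68, below sqv-8 on each array. The set with sqv-8 was chosen with its ratios known, so this comparison is a description only. Genes of the family are alike in sequence, the sequence of each spot was not analysed here, and signal shared between their spots was not tested.

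The measured core protein genes of the 2 chains were unlike each other. Their counts stand beside 21% of all features higher in fem-1(lf) by limma and 23.7% lower. Values of cpg-1 and cpg-2 were known when the lists were chosen. Of 9 chondroitin core protein genes listed, cpg-5, cpg-6, cpg-7, cpg-8 and cpg-9 had no named row. All 4 measured chondroitin core protein genes were higher in fem-1(lf), with a median of 2.88: cpg-1 at 3.22 ± 0.56, cpg-3 at 2.98 ± 1.04, cpg-2 at 2.78 ± 0.72 and cpg-4 at 0.72 ± 0.29 (SD, n = 3, limma adjusted p between 0.000203 and 0.0127). The value of cpg-4 averages rows at -0.15 and 1.58, of which the first did not pass on its own (adjusted p = 0.41). Of the 6 heparan sulfate core protein genes 0 passed limma, and 1, cle-1, was below an unadjusted p of 0.05, on the fem-3(gf) side. The syndecan gene sdn-1 was at -0.0021, the glypican genes gpn-1 and lon-2 at 0.14 and 0.19, the perlecan gene unc-52 at -0.09, the collagen XVIII gene cle-1 at -0.31 and the agrin gene agr-1 at -0.10, with adjusted p-values between 0.073 and 0.99. Centring on the somatic markers put gpn-1 (0.53) and lon-2 (0.58) past the threshold on the fem-1(lf) side. With that centring 37.2% of all features passed on that side, against 21% as deposited. The genes of breakdown, the hyaluronidase-like chhy-1 and the sulfatase genes sul-1, sul-2 and sul-3, had means of -0.12, -0.12, -0.40 and -0.34, of which sul-2 passed (adjusted p = 0.034). That call was lost under each of the 3 rescalings (-0.31 with median centring, -0.01 with somatic centring, -0.31 after scaling) and without prep 1 (-0.42), prep 2 (-0.37) or prep 3 (-0.41).

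Markers of the tissues that may express these genes were examined as well. Over all features, 21% were higher in fem-1(lf) by limma and 23.7% lower. Of 6 genes of the germ line of both sexes, 5 were higher in fem-1(lf), with a median of 1.15 and a range from 0.26 for the germ granule gene glh-1 to 1.92 for the translational repressor gene gld-1. The list also held car-1 at 1.71, pgl-1 at 1.52, him-3 at 0.79 and htp-3 at 0.65. The means of the 7 sqv and mig-22 genes ran from 0.47 to 1.74, and a match between the 2 lists was not tested. Of 7 measured markers of the somatic gonad and vulva, where sqv genes are known to act, 1 was higher in fem-1(lf), 2 were lower and 4 did not pass, with a median of -0.30. The 51 somatic markers of muscle, gut, cuticle and neurons had a pooled median of -0.39. Of these, 1 was higher in fem-1(lf), 23 were lower and 27 did not pass. How far the amount of germ line tissue takes part in the ratios of the sqv genes and mig-22 was not tested. Relative to the somatic markers the 7 genes ran from 0.86 to 2.13, with a median of 1.61.

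**Figure D4:**
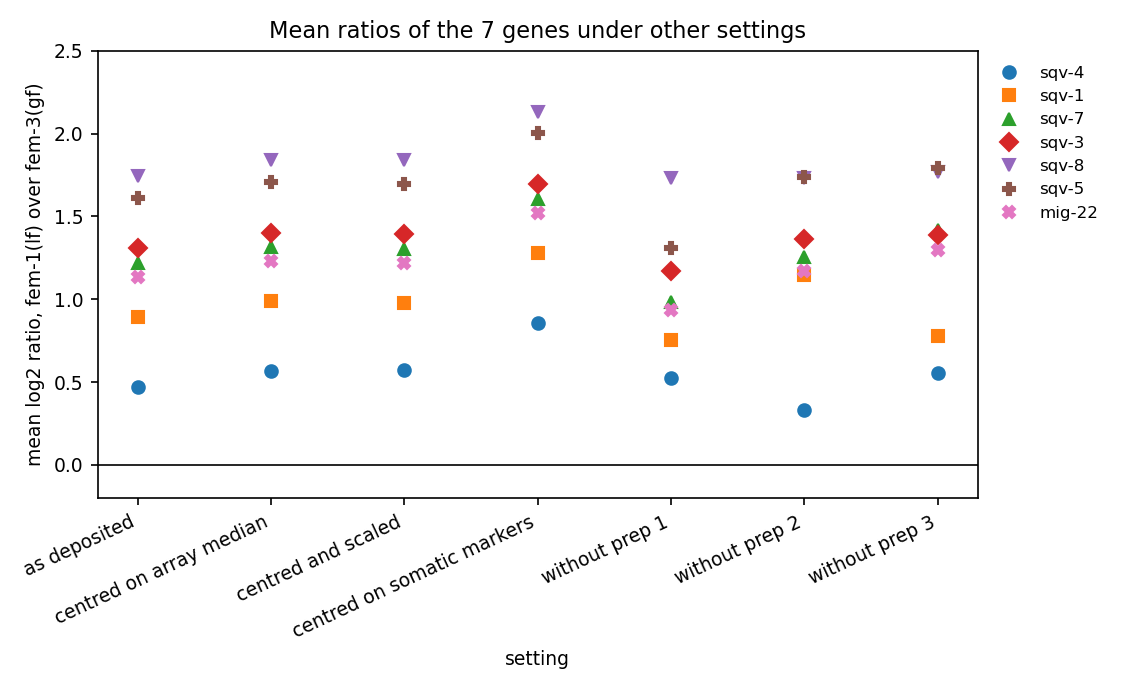
Mean log2 ratio of fem-1(lf) over fem-3(gf) (vertical axis, no unit) of the 7 genes under each setting (horizontal axis), with 1 symbol per gene. Every mean stays above 0, from 0.33 for sqv-4 without prep 2 to 2.13 for sqv-8 with centring on the somatic markers.

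The 7 genes lie on chromosomes I, II, III, IV and V, and none on X. The protein-coding genes next to the 9 in the RefSeq gene table of WBcel235 were looked up, a step added after the data were seen. Many C. elegans genes share a promoter with a neighbour in an operon, but the table gives no strand, so operons were not assessed. Of 18 neighbours 12 were measured, with a median of 0.42. By limma 6 of the 12 were higher in fem-1(lf) (21% of all features were) and 0 were lower (23.7% were). At an unadjusted p under 0.05, 2 were lower. The highest was usp-46, a deubiquitinase gene whose span overlaps that of sqv-3, with 1.84, 1.14 and 1.04 on preps 1, 2 and 3 and a mean of 1.34 ± 0.44 (SD, n = 3, limma adjusted p = 0.00289). The gene tut-2, which overlaps sqv-4, was at 1.15 ± 0.77 (adjusted p = 0.023), and lst-6, beside sqv-7, was at 0.89 ± 0.14 (adjusted p = 0.00268). The neighbour on the other side of sqv-3, the proton pump subunit gene vha-1, was at -0.03 ± 0.24 (adjusted p = 0.86), and unc-104, a kinesin gene beside sqv-7, was at -0.37 ± 0.20 (adjusted p = 0.065). The span of T24D1.7, which was not measured, overlaps that of sqv-5. Whether a spot of sqv-3, sqv-4 or sqv-5 also reports the overlapping gene was not tested.

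Over the 3 arrays the median profile of the 7 genes was 1.58, 1.15 and 1.13, and 656 of 14788 other named genes lay within a Euclidean distance of 0.5 of it. The nearest were F10E7.11, F32D8.5, fbxa-192, unc-37 and R05H11.1, at distances from 0.054 to 0.063, with means from 1.25 to 1.32.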

How the data were processed

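The authors deposited 1 value per row and array, a log2 ratio of the 2 channels, per the labels and the values. The base was read from the values, which raise 2 to whole thousandths in all but 4 of 64209 cases (tolerance 0.01). The sources used here do not give scaling, centring, background treatment, dyes or any dye swap, and spot intensities were not analysed here. Of 21611 rows, 16450 had 1 gene in the platform annotation, and 16360 of these were brought to current names by gene ID through the RefSeq table of WBcel235. Values of rows with the same gene were averaged, other rows stayed in unnamed, and the 19731 features with values on all 3 arrays were fitted.

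The fit was limma 3.58.1 under R 4.3.3 (intercept against 0, eBayes, two-sided, Benjamini-Hochberg over all features, adjusted p under 0.05), tested on simulated data. Folds were taken from the mean log2 ratio. The gene set and lists were chosen with earlier results of these data known, among them values of gfat-2, chs-1, cpg-1, cpg-2 and the 8 sperm and oocyte markers. The genes named were all of the set, the sperm and oocyte markers and the 5 nearest profiles. Pathway lists with 9 or fewer measured were named in full, and longer ones by up to 2 called on each side. The mutated genes, the germ line markers and the neighbours were named after their values were seen. The alternatives were centring on the array median or on the somatic markers, scaling to one spread, each row fitted on its own with the first row standing for its gene, leaving out each array, features on at least 2 arrays, a robust variance model and an adjusted p under 0.01. With so few arrays the precision of each value is limited. Figures were drawn with matplotlib 3.10.9.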

Additional observations from a re-analysis of the deposited data

How the results depend on the processing

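The 7 genes kept a mean above 0 under every alternative run. Means moved by more than the SD between arrays for sqv-8 (1.84 with median centring, 1.84 after scaling, 2.13 with somatic centring) and, with somatic centring, for sqv-3 (1.70), mig-22 (1.52) and sqv-4 (0.86). Leaving out 1 array gave means from 0.33 to 0.55 for sqv-4, 0.76 to 1.15 for sqv-1, 0.98 to 1.42 for sqv-7, 1.17 to 1.39 for sqv-3, 1.73 to 1.77 for sqv-8, 1.31 to 1.79 for sqv-5 and 0.94 to 1.30 for mig-22. Over all features, 4147 passed as higher in fem-1(lf) and 4671 as lower, against 7331 and 2229 with somatic centring, 2699 and 2544 at an adjusted p under 0.01, and 2933 to 4032 and 2763 to 4070 with 1 array left out. Of the heparan sulfate polymerases, 1 to 2 passed with 1 array left out. Of the sulfate supply list, 3 passed, against 1 at an adjusted p under 0.01 and 1 to 4 with 1 array left out. For the other transporters, 1 higher and 2 lower became 2 and 1 with median centring, 5 and 1 with somatic centring, 0 and 1 at an adjusted p under 0.01, 0 to 1 and 1 to 2 with 1 array left out, and 4 higher after scaling. Somatic centring gave 2 heparan sulfate core protein genes where there were 0 by limma (also 0 on that side at an unadjusted p under 0.05). With that centring 37.2% of all features passed as higher in fem-1(lf). The 1 breakdown gene became 0 under median centring, somatic centring, scaling, an adjusted p under 0.01 and each left-out array. The cause of these shifts was not tested. The gene cpg-4 changed sign, to -0.15, when its first row stood for it. For 59 listed genes under 10 alternatives, 551 of 590 outcomes were as reported, 23 lost a call and 15 gained one, and 33 of the 551 changed sign with no call in either. Each log2 ratio is already the difference between the 2 genotypes on 1 array, so the fit is itself paired by array and no further replicate block was fitted.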
